A study of Mus musculus with 8 samples.

Results

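Cholesterol efflux and its control by the liver X receptors (LXRs) were examined in mouse aorta through 10 genes: the lipid transporters Abca1, Abcg1 and Abca7, the receptors Nr1h3 and Nr1h2, and the LXR-regulated genes Mylip, Pltp, Srebf1, Lpcat3 and Arl4c. The genes were chosen by name for what they do, out of 21859 genes counted in the series, with earlier results of these data known. All 10 had enough counts to be tested. Total RNA, depleted of ribosomal RNA, was sequenced from the aortas of 4 mice lacking apolipoprotein E (labelled ApoE knockout, here ApoE-/-) and of 4 wild-type (WT) mice. All mice were C57BL/6 males aged 40 weeks on a chow diet (labelled normal diet), and each library came from 1 mouse. The ApoE-/- mouse lacks a main ligand for lipoprotein clearance and is known for plaque formation in the aorta, and the comparison asks which aortic transcripts differ between the genotypes. The whole vessel was extracted, so each value sums over wall, plaque and the tissue left around the vessel, and in such bulk samples fewer cells of a type cannot be told apart from less RNA per cell.

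As background, LXRα and LXRβ are nuclear receptors that sense oxysterols and desmosterol, the oxidised and precursor forms of cholesterol. They bind DNA together with a retinoid X receptor (RXR) at direct repeats of a hexamer spaced by 4 bases (a DR4 element) and switch on genes that move cholesterol out of the cell. In macrophages, ABCA1 passes cholesterol to lipid-poor apolipoprotein A-I and ABCG1 to mature HDL, and loss of both is known to promote foam cell formation. The sterol-sensing counterpart is SREBP-2, which is activated when cell cholesterol is low and drives cholesterol synthesis.

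The promoters were read for this element because it is the letter pattern that defines the LXR-RXR site. RefSeq promoter sequence on GRCm38.p6, taken as 250 bases before to 50 after each start site, was found for 9 of the 10 genes, and Abcg1 had no entry. The best match to the consensus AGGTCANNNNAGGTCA, searched on both strands, missed 3 of its 12 fixed letters at Abca1, Arl4c and a start site of Srebf1, and 4 or 5 at the others. Matches that close stood in 21.9% of all 32851 promoters of this length, so they do not set these genes apart. The match at Abca1 and that at Srebf1 carried the same 2 hexamers. Their exact pattern, GGGTTANNNNCGGTCA, was searched on both strands after those matches had been seen. It stood in 3 of the 32851 promoters (0.00913%), and how many chance would give was not tested. The promoters of Abca1 and Srebf1 had supplied the pattern. The remaining promoter was that of Fasn, the fatty acid synthase gene that LXR and SREBP-1c are known to control. Each is shown on the gene's strand with its hexamers in capitals, the pattern lying on the opposite strand.
Abca1, chr4:53159940-53159969, minus strand: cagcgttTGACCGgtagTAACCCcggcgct
Srebf1, chr11:60210631-60210660, minus strand: acgacagTGACCGccagTAACCCcagcgcg
Fasn, chr11:120824750-120824779, minus strand: gccacgaTGACCGgtagTAACCCcgcctga
Read along the pattern's own strand and counted from 1 at its 5′ end, all 3 differ from the consensus by A1G, C5T and A11C. The pattern lies 67 to 52 bases upstream of the start at Abca1, 182 to 167 at Srebf1 and 225 to 210 at Fasn. A match describes the letters and does not show that a factor was bound in these aortas.

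Between 18375898 and 23940156 read pairs fell on genes per library, and 64.4% to 72.1% of pairs were assigned to no gene. Apoe itself was at 14.7 to 36.3 counts per 1000000 (CPM) in the ApoE-/- libraries and 536 to 857 in WT, which fits the labels (log2 fold change −4.83, SE 0.37, edgeR adjusted p = 0.0141). CPM are scaled here by the trimmed mean of M-values (TMM), and a gene was called when its Benjamini-Hochberg adjusted p in edgeR's quasi-likelihood test over 15077 genes was under 0.05. ApoE-/- replicate 1 stood apart: markers of chromaffin cells and sympathetic neurons, a list chosen after the values were seen, summed to 2597 CPM there against 4.72 to 165 CPM in the other ApoE-/- libraries and 92.6 to 421 CPM in WT. The 4 markers (Th, Dbh, Chga and Chgb) were all detected in every library, while Cyp11b1, Cyp21a1, Hsd3b1 and Nr5a1, which define adrenal cortex, were at 0 in some libraries, and the 7 adrenal cortex markers summed to 11.98 to 16.9 CPM in every library. For the 10 genes and the gene lists whose values this library moves most, results are given with and without it.

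Of the 10 genes, Arl4c was called, higher in ApoE-/- aortas. Abcg1 differed by a similar size and separated the genotypes completely but missed the threshold in edgeR, while DESeq2 called both. As background, edgeR called 0.464% of all tested genes (0.371% higher and 0.0929% lower) and DESeq2 4.81% (3.12% higher and 1.69% lower). The genotypes did not overlap for 2 of the 10 genes, both higher in ApoE-/-, and for 8.71% of all tested genes (5.41% higher and 3.3% lower). Abca1 and Pltp were higher on average with overlapping libraries, and the receptors Nr1h3 and Nr1h2 differed little on average. The log2 fold change was above 0 for 8 of the 10 genes, with a median of 0.35 against 0.05 over all tested genes. Without ApoE-/- replicate 1, it was above 0 for 7 of the 10, with a median of 0.18.

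**Figure D1:**
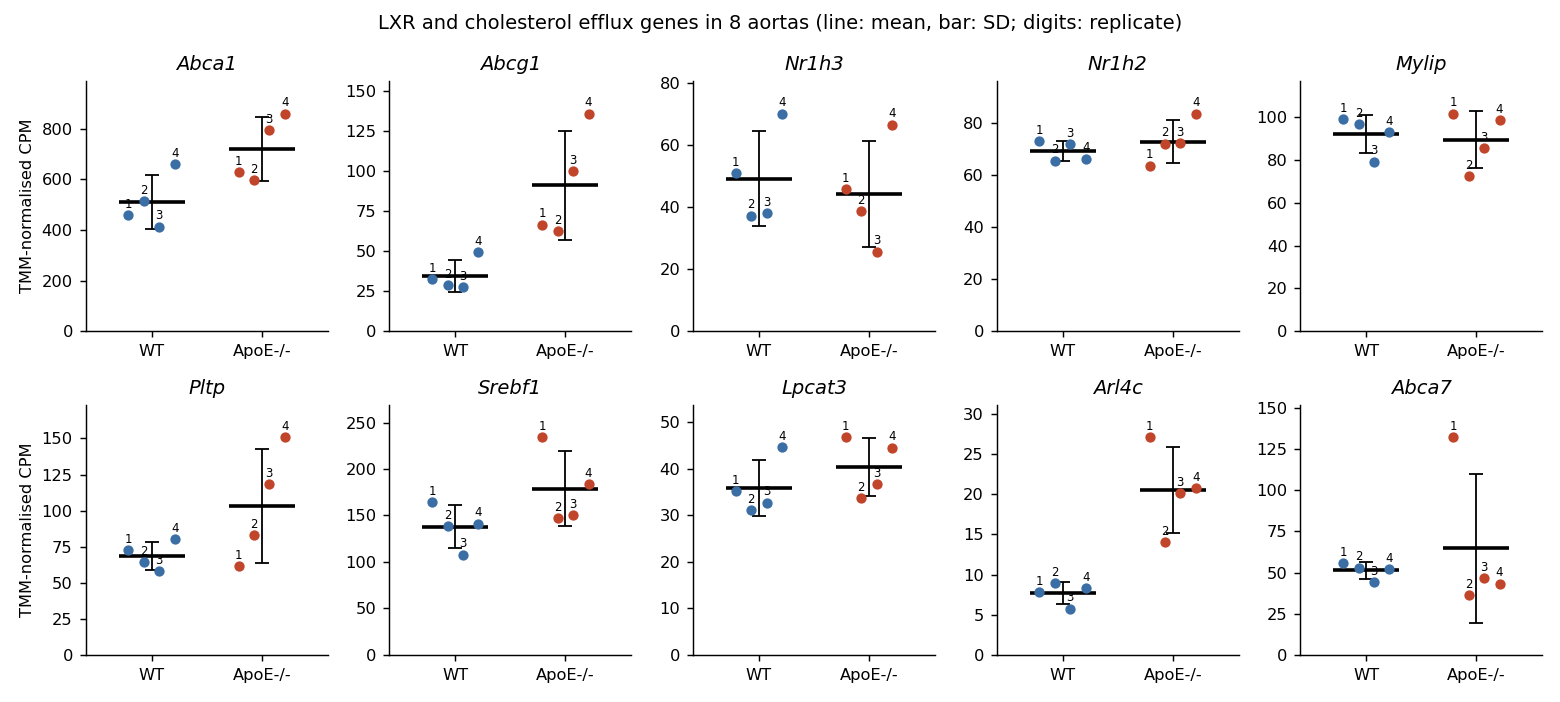
TMM-normalised CPM of the 10 genes (linear axes from 0) in 4 WT (blue) and 4 ApoE-/- (red) aortas, with replicate numbers, the mean as a line and the SD as a bar. The genotypes separate for Abcg1 (27.5 to 49.3 CPM in WT, 62.3 to 136 in ApoE-/-) and Arl4c (5.76 to 8.89 and 14.0 to 27.1), and ApoE-/- replicate 1 is far above the rest for Abca7 (132 CPM).

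ABCA1 is the transporter that starts HDL formation, and mutations in it cause Tangier disease. Abca1 (ENSMUSG00000015243.4, GRCm38 chr4:53030787-53159895, minus strand) was at 459, 515, 413 and 659 CPM in WT replicates 1 to 4 and at 629, 596, 794 and 859 CPM in ApoE-/- replicates 1 to 4. WT replicate 4 reached above ApoE-/- replicates 1 and 2, so the genotypes overlapped. The mean was 1.41-fold higher in ApoE-/- (log2 fold change 0.49, SE 0.20, 95% interval 0.03 to 0.96), with an unadjusted p of 0.0409 and an edgeR adjusted p of 0.394. An unadjusted p under 0.05 was reached by 11.4% of all tested genes. DESeq2 without WT replicate 4 was the sole fit that called it, at an adjusted p of 0.0423, in a fit that called 2.92% of all genes.

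ABCG1 acts after ABCA1 and loads cholesterol onto HDL particles that are already formed. Abcg1 (ENSMUSG00000024030.7, chr17:31057675-31117988, plus strand) was at 32.7, 28.9, 27.5 and 49.3 CPM in the WT libraries and at 66.5, 62.3, 99.7 and 136 CPM in the ApoE-/- libraries. Every ApoE-/- library was above every WT library, a separation in the upward direction seen in 5.41% of all tested genes. The mean was 2.63-fold higher (log2 fold change 1.40, SE 0.30, 95% interval 0.71 to 2.08), with an edgeR adjusted p of 0.0853 and a DESeq2 adjusted p of 0.000634. Without ApoE-/- replicate 1 the log2 fold change was 1.52 and edgeR called it as well (adjusted p = 0.0336, 3.91% of genes called in either direction), whereas without any other single library the edgeR adjusted p lay between 0.0871 and 0.259.

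ABCA7 is the closest relative of ABCA1 among these genes and is known for phagocytosis and phospholipid transport. Abca7 (ENSMUSG00000035722.15, chr10:79996494-80015572, plus strand) was at 55.9, 53.1, 44.4 and 52.0 CPM in WT and at 132, 36.5, 46.7 and 43.4 CPM in ApoE-/-. The coefficient of variation was 9.57% in WT and 69.9% in ApoE-/-, the widest gap of the 10 genes, and it came from ApoE-/- replicate 1. Its difference of 0.33 on the log2 scale (SE 0.40), with an edgeR adjusted p of 0.832, turned to −0.28 (edgeR adjusted p = 0.278) without that library, and neither value passed the threshold.

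LXRα, encoded by Nr1h3, is abundant in macrophages, liver and fat, whereas LXRβ, encoded by Nr1h2, is expressed widely. Nr1h3 (ENSMUSG00000002108.10, chr2:91184061-91202834, minus strand) was at 51.1, 37.4, 38.2 and 70.2 CPM in WT and at 45.8, 38.7, 25.7 and 66.7 CPM in ApoE-/-. The ranges of the genotypes overlapped, with ApoE-/- replicate 3 below the lowest WT library (log2 fold change −0.15, SE 0.31, 95% interval −0.88 to 0.57, edgeR adjusted p = 0.913), and the sign changed when ApoE-/- replicate 3 (0.03) or WT replicate 4 (0.07) was left out. Nr1h2 (ENSMUSG00000060601.13, chr7:44549616-44553951, minus strand, 24.85 Mb from Apoe) was at 72.8, 65.4, 71.8 and 66.2 CPM in WT and at 63.6, 71.9, 72.1 and 83.5 CPM in ApoE-/-. It varied least of the 10 genes in either genotype, with coefficients of variation of 5.48% and 11.2%, and its interval was the narrowest (log2 fold change 0.08, SE 0.10, 95% interval −0.16 to 0.31, edgeR adjusted p = 0.856). The interval of Nr1h3 was wider and leaves room for changes between −0.88 and 0.57 on the log2 scale.

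Arl4c encodes a small ARF-family GTPase that LXR agonists induce and that has been linked to the movement of cholesterol to the plasma membrane for ABCA1-dependent efflux. Arl4c (ENSMUSG00000049866.12, chr1:88673125-88702221, minus strand) was at 7.85, 8.89, 5.76 and 8.28 CPM in WT and at 27.1, 14.0, 20.1 and 20.7 CPM in ApoE-/-. The lowest ApoE-/- library was well above the highest WT library, and the 2.66-fold rise (log2 fold change 1.41, SE 0.22, 95% interval 0.90 to 1.92) passed the threshold in edgeR (adjusted p = 0.0462) and DESeq2 (adjusted p = 2.03e-06). Limma-voom (adjusted p = 0.0747), a filter of 10 counts in every library (edgeR adjusted p = 0.0563) and a replicate block (edgeR adjusted p = 0.148) did not call it, at log2 fold changes of 1.38, 1.41 and 1.39. It was called in edgeR without ApoE-/- replicate 1, its highest library (log2 fold change 1.25, adjusted p = 0.0165). Leaving out any other single library ended the edgeR call, with adjusted p between 0.0508 and 0.173 and log2 fold changes from 1.30 to 1.56. DESeq2 called it in all 8 of these fits, with adjusted p of at most 0.000179.

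PLTP, a secreted protein, transfers phospholipids between lipoproteins and remodels HDL. Pltp (ENSMUSG00000017754.13, chr2:164839518-164857711, minus strand) was at 72.7, 64.2, 58.0 and 80.0 CPM in WT and at 61.6, 82.7, 118 and 151 CPM in ApoE-/-. ApoE-/- replicate 1 lay within the WT range and the other 3 above it. The mean was higher in ApoE-/- (log2 fold change 0.59, SE 0.27, 95% interval −0.03 to 1.20, edgeR adjusted p = 0.469). Without ApoE-/- replicate 1 the log2 fold change was 0.77, with an edgeR adjusted p of 0.0857 and a DESeq2 adjusted p of 0.0126 (DESeq2 called 10.3% of all genes there), and without ApoE-/- replicate 4 it was 0.35.

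SREBP-1, encoded by Srebf1, carries the LXR signal to fatty acid synthesis. Srebf1 (ENSMUSG00000020538.15, chr11:60199089-60222581, minus strand) was at 164, 139, 108 and 141 CPM in WT and at 234, 147, 151 and 184 CPM in ApoE-/-. WT replicate 1 lay above 2 ApoE-/- libraries (log2 fold change 0.38, SE 0.19, 95% interval −0.06 to 0.81, edgeR adjusted p = 0.537), and without ApoE-/- replicate 1 the log2 fold change was 0.22. Lpcat3, whose product places polyunsaturated fatty acids into membrane phospholipids, lies at chr6:124663027-124704418 on the plus strand (ENSMUSG00000004270.13). It was at 35.2, 31.1, 32.7 and 44.7 CPM in WT and at 46.8, 33.7, 36.8 and 44.6 CPM in ApoE-/-, with overlapping genotypes (log2 fold change 0.17, SE 0.16, 95% interval −0.19 to 0.53, edgeR adjusted p = 0.792).

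MYLIP, also called IDOL, is a ubiquitin ligase that LXR induces and that marks lipoprotein receptors for degradation. Mylip (ENSMUSG00000038175.10, chr13:45389742-45412022, plus strand) was at 99.1, 96.8, 79.3 and 92.9 CPM in WT and at 102, 72.4, 85.6 and 98.5 CPM in ApoE-/-. The ApoE-/- libraries reached both above and below the WT range (log2 fold change −0.04, SE 0.13, 95% interval −0.35 to 0.27, edgeR adjusted p = 0.954). The exons of Pltp, Srebf1 and Lpcat3 overlap Ctsa, Rai1 and Emg1 on the other strand. On the same strand, exons of Nr1h3 overlap Gm13783 and exons of Srebf1 overlap Mir6922, and the reads they may share were not examined. The deposited counts are named as stranded, and the exact setting is not given in the sources used here.

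**Figure D2:**
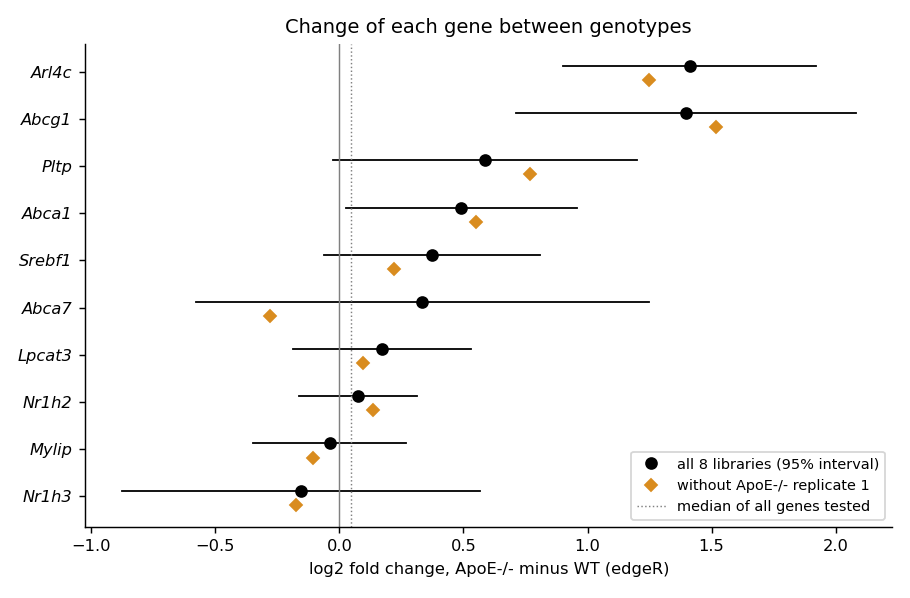
Log2 fold change (ApoE-/- minus WT, edgeR) of the 10 genes, ordered by size, with the 95% interval over all 8 libraries (black) and the estimate without ApoE-/- replicate 1 (orange), the dotted line marking the median of all tested genes (0.05). The intervals of Arl4c (0.90 to 1.92), Abcg1 (0.71 to 2.08) and Abca1 (0.03 to 0.96) lie above 0, and Abca7 moves from 0.33 to −0.28 without the one library.

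To compare levels between genes, CPM were divided by the summed exon length in kilobases. Abca1 had the highest level in WT aorta, at 49.4 ± 10.3 CPM per kilobase (SD, n = 4), the 96.0th percentile of tested genes, and all 4 WT mice had more of it than of Mylip, the next gene. Mylip (28.5), Pltp (26.8), Srebf1 (24.5), Nr1h2 (20.6) and Nr1h3 (19.6 CPM per kilobase) followed, and each neighbouring pair kept its order in 3 of 4 WT mice with overlapping ranges. Lpcat3 (11.0), Abca7 (7.60), Abcg1 (4.74) and Arl4c (1.40 CPM per kilobase) came last. In this lower part of the WT order each gene was above the next in all 4 mice, although the ranges of Abca7 and Abcg1 overlapped.

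In ApoE-/- aortas 3 genes ranked higher than in WT. Pltp (40.3) and Srebf1 (31.8) stood above Mylip (27.7 CPM per kilobase), and Abcg1, at 12.5 ± 4.68 CPM per kilobase (SD, n = 4), stood beside Lpcat3 at 12.4 ± 1.91, the order of that pair being split between 2 mice each way. Abcg1 moved from the 46.5th to the 74.8th percentile of tested genes between the genotypes, and Arl4c from the 21.8th to the 38.4th. Abca1 was still the highest, at 69.4 ± 12.3 CPM per kilobase (SD, n = 4), and Arl4c the lowest, at 3.73 ± 0.97. Apart from Abca7 and Arl4c at the bottom, neighbours in the ApoE-/- order had overlapping ranges.

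**Figure D3:**
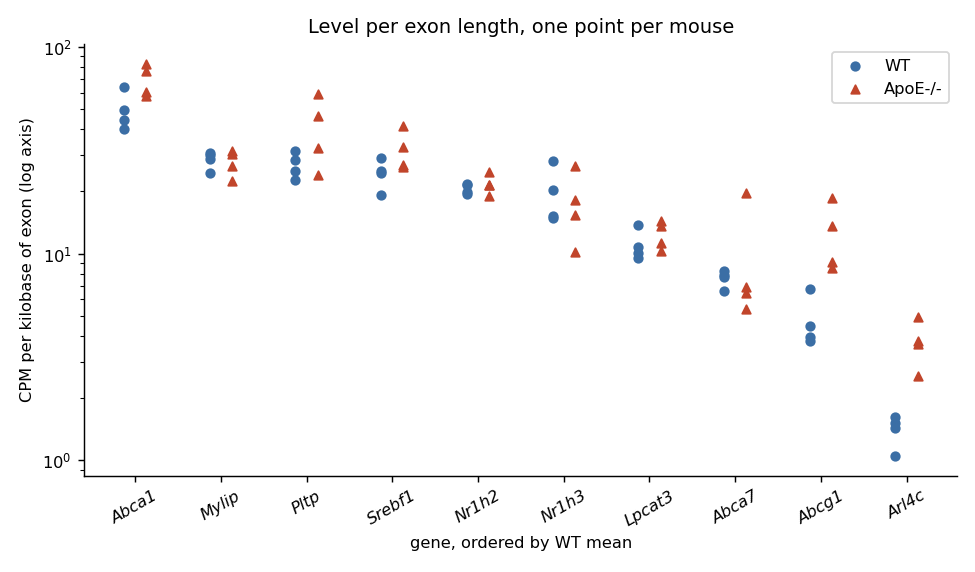
Level of the 10 genes in CPM per kilobase of exon (log axis), with 1 point per mouse for WT (blue circles) and ApoE-/- (red triangles), ordered by the WT mean. Abca1 leads in both genotypes (means of 49.4 and 69.4), Abcg1 is at 4.74 in WT and 12.5 in ApoE-/-, beside Lpcat3, and Arl4c is lowest in both (1.40 and 3.73).

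Ratios within a library do not depend on its scaling, and 3 were compared. Abcg1 per kilobase was 0.0797 to 0.106 of Abca1 in the WT libraries and 0.148 to 0.224 in the ApoE-/- libraries, so the genotypes did not overlap. The log2 ratio was −3.40 ± 0.18 in WT and −2.53 ± 0.28 in ApoE-/- (SD, n = 4 each), a difference of 0.87 with a two-sided exact permutation p of 0.0286, the smallest that 4 against 4 allows, and 0.0857 after adjustment over the 3 ratios. The difference lay between 0.74 and 0.94 when any 1 library was left out. Nr1h3 to Nr1h2 differed by −0.26 and Srebf1 to Srebf2 by 0.23 on the log2 scale, with overlapping libraries (exact permutation p = 0.514 for each, adjusted p = 0.514). When any 1 library was left out, these differences ranged from −0.42 to −0.027 (the latter without ApoE-/- replicate 3) and from 0.0070 (without ApoE-/- replicate 4) to 0.37.

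**Figure D4:**
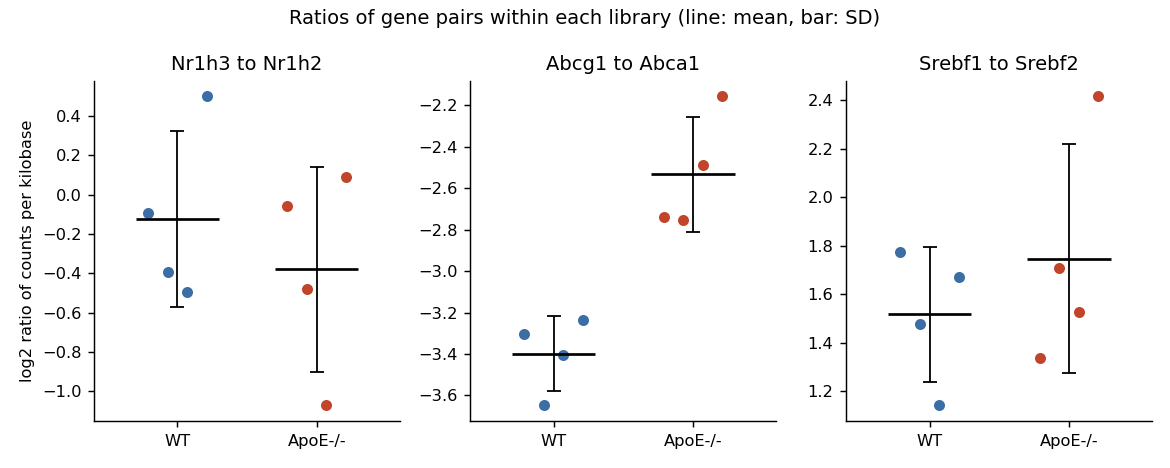
Log2 ratios of counts per kilobase within each library for 3 gene pairs, with points for 4 WT (blue) and 4 ApoE-/- (red) mice, the mean as a line and the SD as a bar, each panel on its own axis. Abcg1 to Abca1 separates the genotypes (means of −3.40 and −2.53), while Nr1h3 to Nr1h2 and Srebf1 to Srebf2 overlap.

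The libraries did not rank alike across the genes. ApoE-/- replicate 1 was the highest of the 8 libraries for 5 genes (Mylip, Srebf1, Lpcat3, Arl4c and Abca7) and ApoE-/- replicate 4 for another 4 (Abca1, Abcg1, Nr1h2 and Pltp). WT replicate 3 was the lowest for 5 (Abca1, Abcg1, Pltp, Srebf1 and Arl4c). All 10 macrophage markers were higher on average in ApoE-/-, 9 of them without overlap, against 5.41% of all tested genes separating upward. The remaining marker lay above every WT library in ApoE-/- replicate 4 and below every WT library in replicates 1 to 3. Of the 10 markers, 1 was called in edgeR and 7 in DESeq2. EdgeR called 7 and DESeq2 9 without ApoE-/- replicate 1, where they called 3.91% and 10.3% of all tested genes. They summed to 313 to 434 CPM in WT and to 486, 988, 1326 and 2566 CPM in ApoE-/- replicates 1 to 4, with Lyz2 and Gpnmb the most abundant and none at 0 in any library. Fibroblast markers, led by Dcn and Lum, were also all 5 higher on average, with 1 called in DESeq2 and none in edgeR (2 in each without ApoE-/- replicate 1, against the same shares of all genes). They summed to 1702 to 2132 CPM in WT and to 1522, 2760, 2695 and 4144 CPM in ApoE-/- replicates 1 to 4, with none at 0. Abcg1 and Pltp were highest in the same library as both sums, ApoE-/- replicate 4, and the part of macrophage and fibroblast content in their values was not tested. Arl4c was highest in ApoE-/- replicate 1, which had the lowest macrophage sum of the ApoE-/- libraries, and in replicates 2 to 4 it stood in the same order as that sum, at 14.0, 20.1 and 20.7 CPM.

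Adipocyte markers, led by Fabp4 and Ucp1, summed to 4808 to 9904 CPM in WT and 2091 to 7828 CPM in ApoE-/-, with 7 of 8 lower on average and none called. Nr1h3 was highest in the library with the most adipocyte signal, WT replicate 4 (70.2 CPM), and lowest in that with the least, ApoE-/- replicate 3 (25.7 CPM), and the part of fat tissue in its spread was not tested. Smooth muscle markers, which define the aortic wall, summed to 10389 to 19580 CPM in WT and 4678 to 19232 CPM in ApoE-/-, with 1 of 6 higher, a median log2 fold change of −0.14 and none called. ApoE-/- replicate 1 had the lowest smooth muscle sum of the 8 libraries, and without it all 6 were higher, with a median of 0.15 and none called. Cardiac muscle markers summed to 189 to 403 CPM in WT and 19.9 to 110 CPM in ApoE-/-, all 5 lower without overlap, against 3.3% of all tested genes separating downward. None was called in edgeR and 4 in DESeq2, and without ApoE-/- replicate 1, where 3.91% and 10.3% of all tested genes were called in either direction, edgeR called 4 and DESeq2 5. Endothelial markers, led by Vwf and Pecam1, summed to 2148 to 2675 CPM in WT and 1509 to 2378 CPM in ApoE-/-, with all 6 lower on average, none called in edgeR and 2 in DESeq2 (1 and 2 without ApoE-/- replicate 1).

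**Figure D5:**
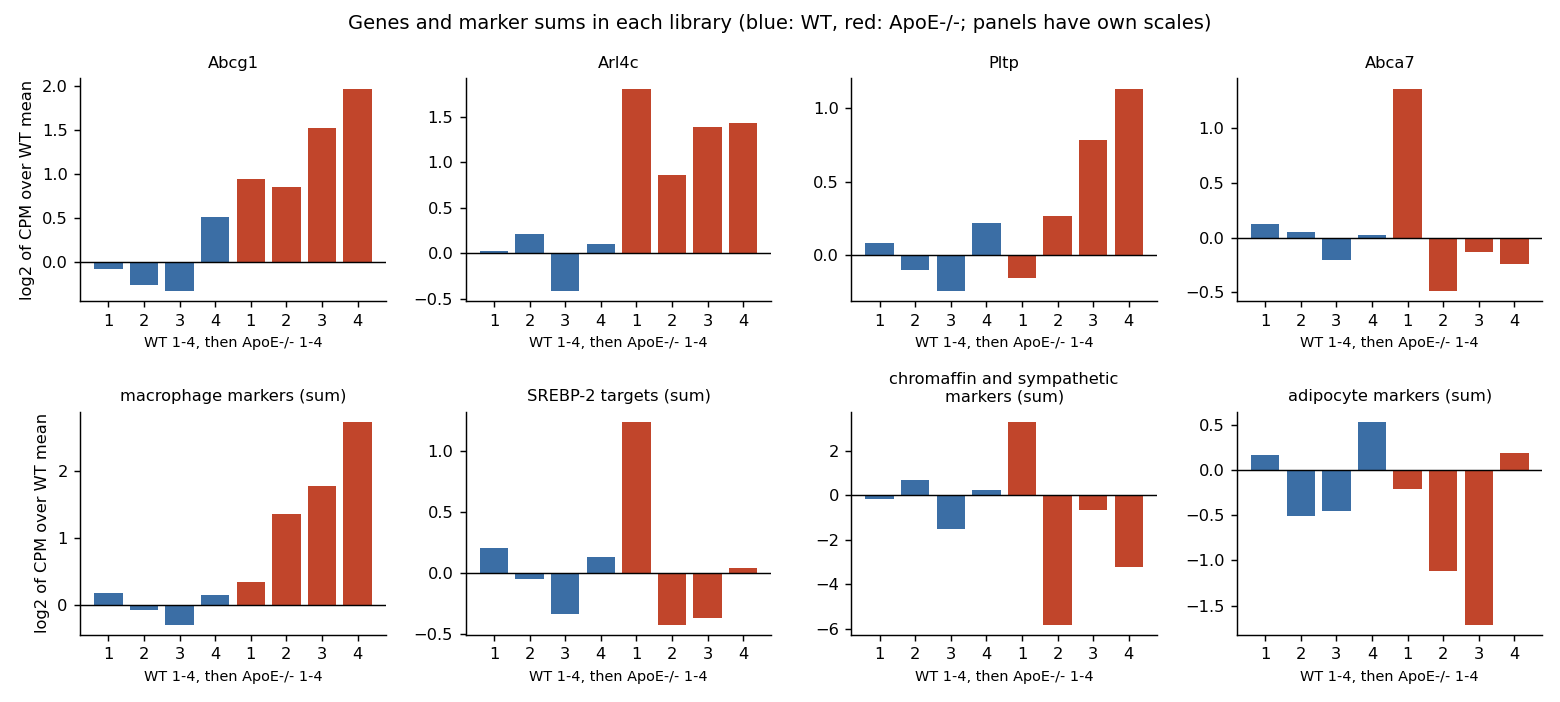
Log2 of CPM over the WT mean in each of the 8 libraries (WT replicates 1 to 4 in blue, then ApoE-/- replicates 1 to 4 in red) for 4 genes (upper row) and 4 summed gene lists (lower row), each panel on its own scale. Abcg1, Pltp and the macrophage sum are highest in ApoE-/- replicate 4, whereas Abca7, the SREBP-2 target sum (1192 CPM) and the chromaffin and sympathetic sum (2597 CPM) peak in ApoE-/- replicate 1.

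Around the 10 genes, 73 other genes of the pathway were taken and 67 had enough counts to be tested. LXR partners and co-regulators were centred on 0, with 7 of 13 above 0, a median log2 fold change of 0.00 and none called by edgeR or DESeq2. They include RXRα, the receptor's DNA-binding partner, whose gene Rxra was at 114 to 137 CPM in WT and 113 to 181 CPM in ApoE-/- (log2 fold change 0.14, edgeR adjusted p = 0.817), and Rxrb (log2 fold change −0.05, edgeR adjusted p = 0.944). The co-repressor Ncor1 (log2 fold change −0.13) and the co-activators Ncoa1 (−0.12) and Med1 (−0.10) had the smallest p of the list and edgeR adjusted p from 0.809 to 0.812.

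Genes that make or remove LXR ligands were also not called: 2 of 5 tested were above 0, with a median of −0.03 (−0.25 without ApoE-/- replicate 1). CYP27A1 makes 27-hydroxycholesterol, and Cyp27a1 was at 35.0 to 52.2 CPM in WT and 25.0 to 39.5 CPM in ApoE-/- (log2 fold change −0.51, SE 0.18, edgeR adjusted p = 0.304). Ch25h, which makes 25-hydroxycholesterol, was at 1.82 to 2.86 CPM in WT and 1.84 to 4.02 CPM in ApoE-/- (log2 fold change 0.49, edgeR adjusted p = 0.635). Hsd3b7, which acts on oxysterols on their way to bile acids, was at 2.16 to 3.40 CPM in WT and 2.80 to 4.04 CPM in ApoE-/- (log2 fold change 0.15, edgeR adjusted p = 0.858, and 0.023 without WT replicate 3, its lowest library).

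Of the other LXR targets, 10 of 15 tested were above 0 with a median of 0.20, and Apoe, the targeted gene and itself an LXR target, was called lower. Without Apoe the median was 0.25 over 14 genes. Without ApoE-/- replicate 1, 9 of the 15 were above 0 and the median was 0.07. DESeq2 called Cd5l and Fasn higher and Apoe and Apoc1 lower. CD5L is a protein that macrophages secrete, and Cd5l was at 0.11 to 0.38 CPM in WT and at 3.53, 46.7, 142 and 267 CPM in ApoE-/- replicates 1 to 4. Every ApoE-/- library was above WT, in the same order as the macrophage sum (log2 fold change 8.79, SE 1.42, edgeR adjusted p = 0.0523, DESeq2 adjusted p = 1.75e-12), and the part of macrophage content in it was not tested. EdgeR called it without ApoE-/- replicate 1 (9.18, adjusted p = 0.00336), with a filter of 1 CPM in 4 libraries (adjusted p = 0.0490) and without robust estimation (adjusted p = 0.0480). Limma-voom did not (7.60, adjusted p = 0.369), and the log2 fold change was 7.95 without ApoE-/- replicate 4 (edgeR adjusted p = 0.0818). Apoc1, the neighbour of Apoe on chromosome 7, was at 46.6, 21.2, 24.5 and 81.5 CPM in WT and at 9.74, 7.65, 4.70 and 17.0 CPM in ApoE-/- (log2 fold change −2.15, SE 0.54, edgeR adjusted p = 0.127, DESeq2 adjusted p = 0.00125).

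Fasn, named after its values were seen because its promoter shares the pattern shown above, was at 612, 753, 568 and 2278 CPM in WT and at 4140, 2122, 1734 and 4399 CPM in ApoE-/-. WT replicate 4 was the 1 WT library within the ApoE-/- range (log2 fold change 1.56, SE 0.55, edgeR adjusted p = 0.298, DESeq2 adjusted p = 0.0476), and its log2 fold change was 1.38 without ApoE-/- replicate 1 and 2.27 without WT replicate 4, within a range of 1.34 to 2.27 when any 1 library was left out. When single libraries were left out, DESeq2 called it without ApoE-/- replicate 3 or WT replicate 4 and did not call it without any of the other 6, with adjusted p from 4.47e-07 to 0.297. In each genotype Fasn was highest in replicate 4, which also had that genotype's highest adipocyte sum (9904 CPM in WT and 7828 CPM in ApoE-/-). Between the genotypes, 7 of 8 adipocyte markers were lower on average in ApoE-/-, whereas Fasn was higher. The part of fat tissue in its values was not tested. The 3 genes with the promoter pattern shown above had log2 fold changes of 0.49 (Abca1), 0.38 (Srebf1) and 1.56 (Fasn), and none was called in edgeR. A link between the pattern and these changes was not tested.

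Genes of cholesterol handling around efflux, listed for storage and transport as well as supply, had 7 of 9 tested above 0. Their median was 0.24 (6 of 9 and 0.15 without ApoE-/- replicate 1), with none called in edgeR. SOAT1 esterifies cholesterol for storage in droplets, and Soat1 was at 38.8, 40.9, 39.3 and 33.1 CPM in WT and at 44.5, 68.1, 74.0 and 81.0 CPM in ApoE-/-. The genotypes did not overlap, and the gene was called by DESeq2 (adjusted p = 0.00548) but not by edgeR (log2 fold change 0.82, SE 0.18, adjusted p = 0.0970). Without ApoE-/- replicate 1 edgeR called it too, at 0.97 (adjusted p = 0.00636), and without no other single library (edgeR adjusted p up to 0.284). DESeq2 lost the call without WT replicate 4 (adjusted p = 0.0645). Nceh1, whose product releases cholesterol from those esters, was at 14.6 to 27.5 CPM in WT and 24.4 to 60.2 CPM in ApoE-/- (log2 fold change 0.93, SE 0.29, edgeR adjusted p = 0.230). Cav1, the gene of the caveolar coat protein, was lower in every ApoE-/- library, at 558 to 912 against 970 to 1037 CPM in WT, without passing the threshold (log2 fold change −0.44, edgeR adjusted p = 0.396). The HDL receptor gene Scarb1 had a log2 fold change of 0.05 with ApoE-/- replicate 1 and −0.24 without it, and of −0.01 in limma-voom, and was not called.

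Genes that respond to low sterol through SREBP-2, listed together with Srebf2 and its escort Scap, were above 0 for 11 of 12 with a median of 0.48, but none was called by edgeR and 1 library carried the direction. DESeq2 called none of the 9 for which it gave an adjusted p, and gave none for Sqle, Fdps and Stard4. Their summed level was 1192 CPM in ApoE-/- replicate 1, against 377, 390.2 and 521 CPM in replicates 2 to 4 and 401 to 581 CPM in WT, and that library was the highest of 8 for all 12 genes. Without it 3 of 12 were above 0, the median was −0.18, and none was called by edgeR or DESeq2. Of the 12, Mvd (log2 fold change 1.01), Scap (0.19) and Fdft1 (0.55) had the smallest p over all 8 libraries, with edgeR adjusted p from 0.602 to 0.734. Srebf2 itself was at 118 CPM in that library, at 43.9 to 66.6 CPM in the other ApoE-/- libraries and at 56.4 to 63.4 CPM in WT. The chromaffin and sympathetic markers were highest in the same library, and their part in these values was not tested.

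Of the receptors that MYLIP marks for degradation, Lrp8 (log2 fold change 1.08) and Vldlr (−0.17) were examined, and neither was called in edgeR (adjusted p = 0.616 and 0.833). Without ApoE-/- replicate 1 these were 0.21 and −0.048. Lrp8 was at 3.77 to 7.30 CPM in WT and at 25.1, 4.46, 9.71 and 3.21 CPM in ApoE-/- replicates 1 to 4.

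The genes whose profile over the 8 libraries lay nearest to that of Abca1 were Ociad2, Nradd and Ftl1-ps1, with root mean square differences of 0.13, 0.14 and 0.15 on the log2 scale after centring. Nearest to Abcg1 were Arhgap30 (0.18), Fcer1g (0.20) and Ikzf1 (0.21). Ftl1-ps1 is annotated as a pseudogene of the ferritin light chain and may share reads with its parent gene.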

How the data were processed

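Stranded, ribodepleted total RNA libraries from 8 aortas were sequenced as read pairs by the authors, who deposited raw counts per gene for each sample. The submitters' processing notes name TopHat2, HTSeq, GRCm38 and mm10. The deposited files are named as stranded counts of unique reads. Versions and annotation release are not given in the sources used here. The files list 21859 genes; 21817 matched GENCODE M21 by identifier, which gave positions and exon lengths. Rows for pairs without a gene were left out.

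Counts were tested with edgeR 4.0.16 (filterByExpr, TMM, robust quasi-likelihood F test, ApoE-/- against WT, adjusted p under 0.05) in R 4.3.3, after a check on simulated data. Alternatives were DESeq2 (the package the study used, here in version 1.42.0), limma-voom (limma 3.58.1), other scalings and filters, a replicate block and the omission of each library. Ratios were compared by exact permutation. The 10 genes had at least 104 read pairs in every library, the fewest being for Arl4c, and counting error was not separated from the spread between mice. No 2 libraries held identical counts. The 10 genes and all lists were chosen with earlier results of these data known. Of each pathway list, the 3 genes with the smallest edgeR p were named, with some fixed genes (Apoe, Vldlr, Lrp8, Rxra, Rxrb, Scarb1, Cyp27a1, Ch25h, Srebf2); of each marker list fixed with them, at most the 2 most abundant. The DESeq2 fits without single libraries, the list counts without ApoE-/- replicate 1, and the adrenal cortex and chromaffin lists, whose defining markers are named, were chosen after seeing the data. A few listed genes are not reported here and were left out of the lists before they were counted and summed.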

Additional observations from a re-analysis of the deposited data

Results flagged for a closer look

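Among 92 groups of 4 values examined with Dixon's ratio of gap to range, 3 exceeded the 95% critical value, against the 4.6 that chance gives at 1 in 20. In ApoE-/- replicate 1 the ratio was 0.893 for Abca7 (132 CPM against 36.5 to 46.7 CPM in the other ApoE-/- libraries) and 0.935 for Mvd, a mevalonate pathway gene (20.9 against 3.80 to 4.92 CPM). The chromaffin and sympathetic markers, listed after that library was seen to be high and so not examined with the ratio, summed to 2597 CPM there against 4.72 to 165 CPM, and their part in the gene values was not tested. In WT replicate 3 the ratio was 0.886 for Hsd3b7, an oxysterol-metabolising enzyme gene at low level (2.16 CPM against 3.26 to 3.40 CPM in the other WT libraries).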

How the results depend on the processing

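Of the 10 genes, 1 passed the threshold in edgeR (Arl4c), 2 in DESeq2 (Abcg1 and Arl4c), and 0 in limma-voom, with 10 counts required in every library, or with a replicate block. In those 3 the adjusted p of Arl4c was 0.0747, 0.0563 and 0.148, with log2 fold changes of 1.38, 1.41 and 1.39. Leaving out 1 library gave 0 to 2 genes in edgeR and 2 to 3 in DESeq2. Over all genes the counts were 70 in edgeR, 725 in DESeq2, 29 in limma-voom and 2 with the block, and 0 to 593 in edgeR or 445 to 1562 in DESeq2 without 1 library. Over the 67 tested genes of the pathway lists, edgeR called 1, the targeted gene Apoe. DESeq2 called 6: Apoe, its neighbour Apoc1, Abcg2, Cd5l, Fasn and Soat1. The shares of all tested genes were 0.464% in edgeR and 4.81% in DESeq2. The pathway counts were 2 with a filter of 1 CPM in 4 libraries and 2 without robust estimation (Apoe and Cd5l in both). Without 1 library they were 0 to 4 in edgeR or 4 to 7 in DESeq2.

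Replicate numbers did not pair the samples: deviations of same-numbered libraries correlated at 0.06, −0.45, 0.32 and 0.16, and only number 3 correlated best with its own number.

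Some uncalled log2 fold changes changed sign. Scarb1 was −0.011 in limma-voom and −0.0095 with the block. Without 1 library, in edgeR or DESeq2, the ranges were −0.29 to 0.53 for Abca7, −0.11 to 0.050 for Mylip, −0.0067 to 0.14 for Nr1h2, −0.44 to 0.066 for Nr1h3, −0.020 to 0.23 for Rxra, −0.17 to 0.061 for Rxrb, −0.25 to 0.19 for Scarb1 and −0.12 to 0.41 for Srebf2. For Apoe, edgeR's adjusted p was 0.0587 without ApoE-/- replicate 3, 0.0838 without WT replicate 2 and 0.0755 without WT replicate 4, at log2 fold changes of −4.69, −4.86 and −4.73. The cause was not tested.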

Other observations

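Of the other ABCA and ABCG transporters listed together, 3 of 11 tested had a log2 fold change above 0, with a median of −0.12, and none was called in edgeR. Abcg4, listed with the genes of cholesterol handling around efflux and not in that count, had a log2 fold change of 0.59 (edgeR adjusted p = 0.742), and of 0.0076 without ApoE-/- replicate 1. Abcg2, an exporter of xenobiotics and urate, was at 95.2, 131, 121 and 112 CPM in WT and at 87.0, 63.6, 78.8 and 88.9 CPM in ApoE-/-, so that every ApoE-/- library was below every WT library (log2 fold change −0.53, SE 0.14, edgeR adjusted p = 0.163, DESeq2 adjusted p = 0.0189). Such a downward separation was seen in 3.3% of all tested genes. DESeq2 did not call Abcg2 without ApoE-/- replicate 2 or 3, or without WT replicate 2, 3 or 4 (adjusted p from 0.0608 to 0.142). Abca6 was at 53.4 to 92.9 CPM in WT and at 83.4, 34.1, 36.3 and 43.5 CPM in ApoE-/- replicates 1 to 4. Its log2 fold change was −0.63 with all libraries (edgeR adjusted p = 0.543) and −1.005 without ApoE-/- replicate 1, where edgeR called it (adjusted p = 0.0429). Abca2 was at 114 to 127 CPM in WT and at 249, 137, 152 and 114 CPM in ApoE-/- replicates 1 to 4 (log2 fold change 0.42, edgeR adjusted p = 0.585, and 0.14 without ApoE-/- replicate 1).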
